A study of Mus musculus with 5 samples.

Results

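Macrophages and monocytes take up dead cells, debris and lipid inside tumours, and 10 genes that mark them were followed here in 5 mammary tumours of the mouse: Csf1r, Cd68, Cd14, Mrc1, Lyz2, Trem2, Apoe, Spp1, Mpeg1 and Mertk. They were chosen by name as macrophage and monocyte genes, and all 10 of 10 were found among the 38918 genes of the deposited table. The tumours came from FVB mice of an SV40-transgenic line at 20 weeks of age. In the maternal BSp group (3 libraries) the dams ate a diet holding 26% broccoli sprouts (BSp) between conceiving and weaning. In the control group (2 libraries) the dams ate the control diet over the same period. The offspring of both groups were themselves untreated, and the labels name neither the promoter that drives the transgene nor whether each library is 1 animal, and p-values therefore cover only how far these libraries lie apart, which may be technical. RNA came from whole tumours, so fewer cells of a type and less RNA per cell cannot be told apart.

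Macrophages depend on signals through the receptor encoded by Csf1r, whose ligands are CSF1 and IL34, and on the transcription factor PU.1, which binds many of their promoters. In tumours they arise from blood monocytes and from cells resident in the tissue. They degrade what they engulf in lysosomes, sense bacterial products through CD14 and TLR4, and handle lipid through TREM2 and apolipoprotein E. Several of the 10 genes are not exclusive to them: mammary epithelium and tumour cells can make osteopontin (Spp1) and CD14, and many cell types can make apolipoprotein E.

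The libraries were unequal in depth. The recovered totals were 8459029, 61663199 and 13796272 reads in maternal BSp replicates 1, 2 and 3, against 1106813 and 3909583 reads in control replicates 1 and 2. Both control libraries were thus shallower than every maternal BSp library. Values below are the authors' normalised reads, scaled to a common total of 1106813 per library, and 1 read is worth 0.0179 on this scale in maternal BSp replicate 2 but 1 in control replicate 1. Of the 10 genes, 7 were highest in maternal BSp replicate 2, the deepest library, where 45.8% of all 9870 tested genes were also highest. That library weighs on several of the group means below, and the log2 fold change of each of the 9 tested genes is given with and without it.

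No macrophage gene passed the test between the groups, and the clearest separation was that of Spp1. Of the 10 genes, 9 reached the mean of 10 over the libraries that the test asked for, and these went into limma, and 0 of 9 passed an adjusted p of 0.05, as did 0% of all genes tested. Over all genes, 1101 had an unadjusted p under 0.05 in limma, and on recovered reads edgeR called 0 and DESeq2 100, with none of the 9 among them. An unadjusted p under 0.05 was reached by 1 of the 9, Spp1, which was higher in maternal BSp, as were 8.01% of all genes tested, while 3.14% were lower. A log2 fold change above 0 was seen in 7 of the 9, against 63.2% of all genes tested, and in 6 of the 9 with upper quartile, median-of-ratios or TMM scaling, since Apoe then lay below 0. The median log2 fold change of the 9 was 0.57, beside 0.21 over all genes tested. Without maternal BSp replicate 2 it was 0.08, and the median over all genes tested was then also 0.08. The groups did not overlap for 1 of the 9, again Spp1 with maternal BSp above, as for 23.8% of all genes tested.

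**Figure D1:**
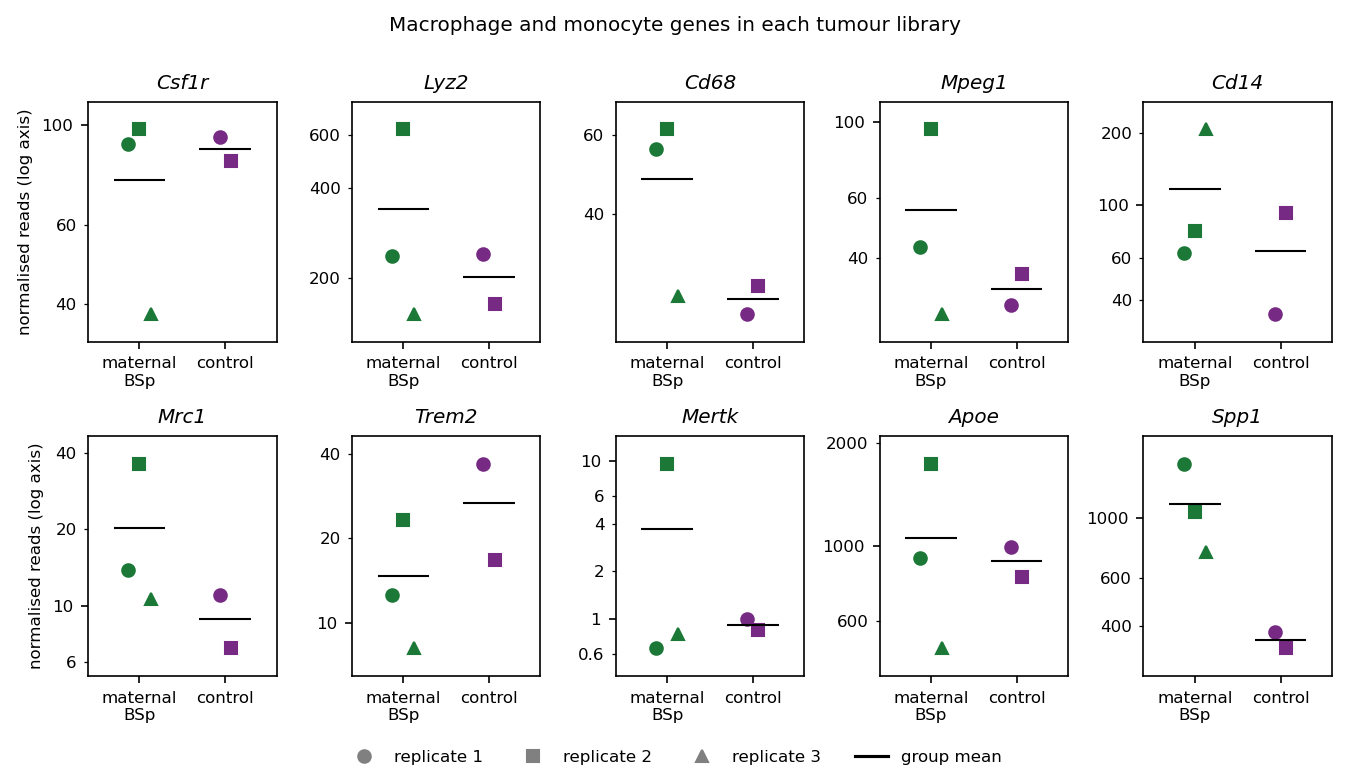
Normalised reads (log axis) of the 10 macrophage and monocyte genes in 3 maternal BSp libraries (green, left) and 2 control libraries (purple, right), with the symbol giving the replicate and the line the group mean. Spp1 is the gene whose groups do not overlap, with 751 to 1576 in maternal BSp and 333 to 382 in control, and maternal BSp replicate 2 stands above the other libraries for Lyz2, Mpeg1, Mrc1, Mertk and Apoe.

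Csf1r, the receptor tyrosine kinase that macrophages need for survival, had nearly the same level in 4 of the 5 libraries. It measured 90.8, 98.02 and 38.03 in maternal BSp replicates 1, 2 and 3, against 94 and 83.2 in control replicates 1 and 2. Maternal BSp replicate 3 was the low library and the others lay close together, so the groups overlapped. The means were 75.6 ± 32.8 in maternal BSp (SD, n = 3) and 88.6 ± 7.61 in control (SD, n = 2). This gave a log2 fold change of -0.34 (SE 0.46, limma adjusted p = 0.79), and it turned to 0.092 without maternal BSp replicate 3 (-0.58 without replicate 2). The gene lies on chromosome 18 from 61100598 to 61132149 (GRCm38, plus strand).

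Its ligands were measured beside it. Csf1 measured 52.6, 91.15 and 16.8 in maternal BSp, against 44 and 41.1 in control, so it was lowest in the library where Csf1r was lowest. Il34, the other ligand, was at 9.29, 17.0 and 5.13 in maternal BSp and 6 and 12.5 in control. Csf2ra, a receptor chain for the related factor GM-CSF, was below the mean of 10 needed for the test, with 14.3, 14.1 and 9.87 in maternal BSp and 4 and 5.66 in control. Its groups did not overlap, and in the authors' deposited table its unadjusted p was 0.0171. Its control values rest on 4 and 20 reads. None of the 10 macrophage genes is among the 2447 genes of the authors' deposited table.

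Lyz2, Cd68 and Mpeg1 encode proteins of the compartments in which macrophages digest or kill what they engulf. Lyz2, the lysozyme of myeloid cells (chromosome 10, 117277331 to 117282321, minus strand), measured 237, 629 and 152 in maternal BSp, against 241 and 163 in control. Only maternal BSp replicate 2 lay outside the range of the other 4 libraries by a wide margin, at 2.61 times the next library. Its log2 fold change was 0.51 (SE 0.58, limma adjusted p = 0.74), and it turned to -0.064 without that library. Lyz1, a close relative, had 0.916, 0.377 and 0.241 in maternal BSp and 2 and 0 in control. How reads shared by the copies were counted is not given in the sources.

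Cd68, a glycoprotein of lysosomal membranes (chromosome 11, 69664213 to 69666153, minus strand), measured 55.7, 61.6 and 26.3 in maternal BSp, against 24 and 27.7 in control. Maternal BSp replicates 1 and 2 were about equally high, and replicate 3 lay between the 2 controls. The means were 47.9 ± 18.9 in maternal BSp (SD, n = 3) and 25.9 ± 2.65 in control (SD, n = 2), a log2 fold change of 0.78 (SE 0.44, limma adjusted p = 0.52). Without maternal BSp replicate 2 it was 0.55. Mpeg1, the pore-forming perforin-2 of phagocytes (chromosome 19, 12460779 to 12465283, plus strand), measured 42.9, 95.3 and 27.4 in maternal BSp, against 29 and 36.0 in control. Replicate 2 was high and replicate 3 the lowest of the 5 libraries, so the groups overlapped. Between the groups, the log2 fold change was 0.57 (SE 0.52, limma adjusted p = 0.68) and 0.08 without maternal BSp replicate 2.

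Cd14, Mrc1 and Trem2 are receptors on the cell surface, and each had its own order of libraries. Cd14, the co-receptor that hands lipopolysaccharide to TLR4 (chromosome 18, 36725067 to 36726798, minus strand), measured 63.2, 78.1 and 207 in maternal BSp, against 35 and 92.9 in control. Maternal BSp replicate 3 was highest for this gene while it was lowest for 5 of the 10, and control replicate 2 lay above maternal BSp replicates 1 and 2. This gave a log2 fold change of 0.81 (SE 0.60, limma adjusted p = 0.61), and leaving out control replicate 1 gave 0.12, leaving out maternal BSp replicate 3 gave 0.29 and replicate 2 gave 0.99. Tlr4 itself measured 23.8, 34.0 and 7.70 in maternal BSp, against 16 and 13.02 in control, so the 2 partners were not high in the same library. Ly96, which completes the receptor, was at 7.46, 5.44 and 4.01 in maternal BSp, against 4 and 2.55 in control. Maternal BSp replicate 3 also held most of the milk protein transcripts: the 6 listed genes summed to 20.2, 3.02 and 1149 in maternal BSp and to 4 and 3.40 in control, nearly all from Csn3, with Csn2 at 0 in 4 of the 5 libraries. The part of such cells in the Cd14 value was not tested.

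Mrc1, the mannose receptor CD206 of alternatively activated macrophages (chromosome 2, 14229392 to 14332057, plus strand), measured 13.9, 36.3 and 10.7 in maternal BSp, against 11 and 6.79 in control. Replicate 2 was high, and replicate 3 lay just under control replicate 1. The control values rest on 11 and 24 reads. Its log2 fold change was 0.95 (SE 0.63, limma adjusted p = 0.57) and 0.45 without maternal BSp replicate 2. Its relative Mrc2, a collagen receptor of stromal cells, measured 49.7, 51.75 and 146 in maternal BSp, against 25 and 18.1 in control, with no overlap of the groups, a log2 fold change of 1.72 (SE 0.52) and a limma adjusted p of 0.41. Trem2, a lipid-sensing receptor (chromosome 17, 48346401 to 48354147, plus strand), measured 12.6, 23.2 and 8.10 in maternal BSp, against 37 and 16.7 in control. It was the one gene of the 10 that was highest in a control library, and replicate 2 of maternal BSp lay above control replicate 2. Between the groups, the log2 fold change was -0.85 (SE 0.58, limma adjusted p = 0.57), and leaving out control replicate 1 gave -0.30, leaving out control replicate 2 gave -1.40, and leaving out maternal BSp replicate 2 gave -1.22. Its signalling adaptor Tyrobp measured 45.5, 44.5 and 31.0 in maternal BSp, against 43 and 57.5 in control, a much narrower range than that of Trem2.

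Mertk, a receptor tyrosine kinase with which macrophages bind dying cells, was at 10 reads or fewer outside 1 library. It measured 0.654, 9.60 and 0.802 in maternal BSp, against 1 and 0.849 in control, and its mean was too low for the test. Those values rest on 5, 535 and 10 reads in maternal BSp and on 1 and 3 reads in control. The exact 95% Poisson interval was 8.81 to 10.5 in maternal BSp replicate 2 and 0.0253 to 5.57 in control replicate 1, which covers counting error only. The interval of maternal BSp replicate 2 thus lay above that of every other library, while among the other 4 libraries no difference was detectable at this depth. Mertk lies on chromosome 2, 128698956 to 128802894 (plus strand).

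The bridging proteins and relatives of Mertk were more abundant than Mertk itself. Gas6, a ligand of the receptor, measured 188, 430 and 119 in maternal BSp, against 185 and 128 in control, again highest in maternal BSp replicate 2. Pros1, the other ligand, measured 27.7, 39.2 and 22.8 in maternal BSp, against 17 and 9.06 in control, with no overlap, a log2 fold change of 1.17 (SE 0.46) and a limma adjusted p of 0.43. The receptor Axl measured 141, 181 and 47.8 in maternal BSp, against 101 and 52.4 in control, so it overlapped. Of 12 tested genes of engulfment 11 had a log2 fold change above 0 and 1 below, with a median of 0.44 beside 0.21 over all genes, of which 63.2% were above 0, and 0 passed. That median was 0.13 with 9 above 0 without maternal BSp replicate 2 (all genes 0.08), and 0.68 without control replicate 1 (all genes 0.18). With the 3 other scalings it lay between 0.23 and 0.30, with 9 or 10 above. The median over all genes then lay between 0.003 and 0.08. Elmo1, which links engulfment receptors to the cytoskeleton, had the larger log2 fold change of the 2 with an unadjusted p under 0.05, and averaged 20.9 ± 11.2 in maternal BSp (SD, n = 3) and 5.05 ± 0.0678 in control (SD, n = 2). By library it measured 20.7, 9.73 and 32.2 in maternal BSp, against 5 and 5.10 in control, where the values rest on 5 and 18 reads. Its log2 fold change was 1.71 (SE 0.63, limma adjusted p = 0.42).

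Apoe and Spp1 encode secreted proteins and had the highest levels per length of the 10 genes. Per kilobase of the longest annotated transcript, Apoe averaged 706 ± 327 normalised reads and Spp1 542 ± 341 over the 5 libraries (SD, n = 5), followed by Lyz2 at 216 ± 150. Then came Cd14 at 58.0, Cd68 at 31.8, Trem2 at 17.9, Csf1r at 17.2, Mpeg1 at 10.6, Mrc1 at 2.93 and Mertk at 0.600 per kilobase. Neighbours in this order differed by less than the larger of their SDs over the libraries for Apoe and Spp1, Spp1 and Lyz2, Cd14 and Cd68, Cd68 and Trem2, and Trem2 and Csf1r, and by more for the others. The order was not the same in every library: Spp1 was above Apoe in maternal BSp replicates 1 (1046 against 655 per kilobase) and 3 (499 against 354), and below it in maternal BSp replicate 2 and in both controls.

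Fold changes of all genes also differed with transcript length. Among tested genes of like length, the median log2 fold change was -0.41 for the class of Cd68 and Trem2, -0.15 for that of Cd14, Lyz2, Apoe and Spp1, 0.39 for that of Csf1r and Mpeg1, and 0.43 for that of Mrc1. Trem2, Mpeg1 and Mrc1 lay on the same side of 0 as their class, and the other 6 genes on the opposite side. The part of length in these values was not tested.

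Apoe, the lipid carrier (chromosome 7, 19696109 to 19699188, minus strand), measured 923, 1746 and 499 in maternal BSp, against 992 and 811 in control. Maternal BSp held both the highest and the lowest library. This gave a log2 fold change of 0.05 (SE 0.54, limma adjusted p = 0.98) and -0.40 without maternal BSp replicate 2. Abca1 and Abcg1, which load cholesterol onto lipoproteins, followed the same library more steeply. Abca1 measured 62.8, 372 and 29.1 in maternal BSp, against 77 and 54.1 in control, and Abcg1 measured 26.95, 114 and 18.4 in maternal BSp, against 38 and 34.8 in control. Both were thus high in maternal BSp replicate 2 alone. Of the lipoprotein receptors, Vldlr separated the groups, at 32.7, 32.8 and 46.5 in maternal BSp, against 11 and 16.7 in control. Its log2 fold change was 1.38 (SE 0.40, limma adjusted p = 0.41), and its unadjusted p in the authors' deposited table was 0.0341.

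Spp1, which encodes osteopontin, a secreted ligand of CD44 and of integrins (chromosome 5, 104435118 to 104441050, plus strand), measured 1576, 1044 and 751 in maternal BSp, against 382 and 333 in control. Every maternal BSp library lay above both controls, and unlike most of the other genes its highest library was replicate 1. The means were 1124 ± 418 in maternal BSp (SD, n = 3) and 357 ± 34.7 in control (SD, n = 2). Its log2 fold change was 1.59 (SE 0.42, unadjusted p = 0.0050 and adjusted p = 0.41, limma). It stayed between 1.31 and 1.96 over 16 other settings, though other filters cannot change it. Among these values were 1.61 without maternal BSp replicate 2, 1.39 with TMM scaling and 1.37 with median-of-ratios scaling. With array weights, which count maternal BSp replicate 1 at 2.97 and replicate 2 at 0.337, the limma adjusted p was 0.0274, the lowest over these settings (highest 0.980, without control replicate 1), in a setting in which 7.08% of all genes tested were called. That setting also called C1qa, C1qb and Fabp5, lower in maternal BSp, and Elmo1, Vldlr and Mrc2, higher.

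Receptors of osteopontin were measured beside it. Cd44 was at 471, 277 and 179 in maternal BSp, against 228 and 249.7 in control. Itgav was at 137, 118 and 114 in maternal BSp, against 111 and 76.4 in control, so the groups did not overlap. All 6 tested receptors had a log2 fold change above 0, with a median of 0.34 beside 0.21 over all genes, and 0 passed. Among all genes tested, 63.2% were above 0. With upper quartile, median-of-ratios and TMM scaling all 6 were also above 0. Their medians were then 0.22, 0.14 and 0.16, beside 0.08, 0.003 and 0.02 over all genes. Without maternal BSp replicate 2 the median was 0.20 with 5 of 6 above, beside 0.08 over all genes.

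**Figure D2:**
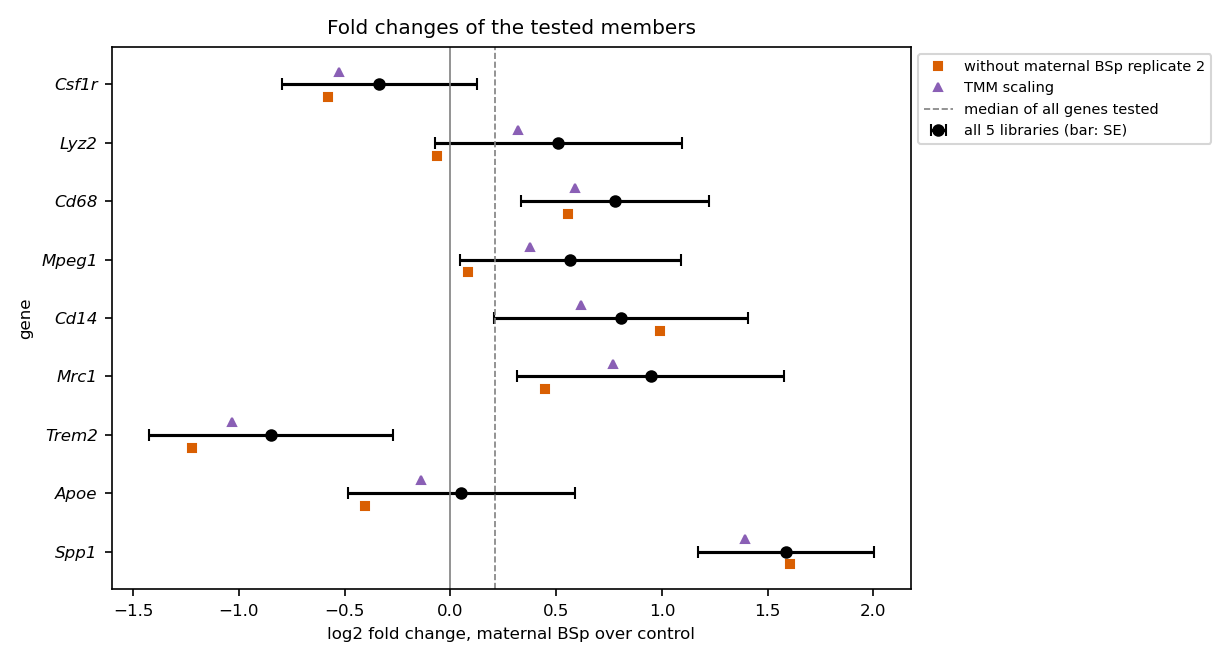
Log2 fold change (maternal BSp over control) of the 9 tested genes (black points, bars give the SE) from limma on log2(value + 1), with the values without maternal BSp replicate 2 (orange squares) and with TMM scaling (violet triangles). The dashed line is the median of all genes tested at 0.21, and Spp1 at 1.59 is the farthest from it.

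The promoters of Spp1, Mrc1 and Cd68 are shown, and Spp1 is the gene whose groups separate. Mrc1 and Cd68 are among the genes highest in maternal BSp replicate 2, at 2.62 and 1.11 times the next library, and do not stand for all of those. The sequences are RefSeq's on GRCm38.p6, the 250 bases before the annotated start, 5′ to 3′ on the strand of the gene, with each match to the PU.1 core GAGGAA or its reverse complement TTCCTC in capitals. They lie at chr5:104434861-104435110 (plus strand, the first of 2 annotated starts), chr2:14229164-14229413 (plus strand) and chr11:69666171-69666420 (minus strand).
Spp1: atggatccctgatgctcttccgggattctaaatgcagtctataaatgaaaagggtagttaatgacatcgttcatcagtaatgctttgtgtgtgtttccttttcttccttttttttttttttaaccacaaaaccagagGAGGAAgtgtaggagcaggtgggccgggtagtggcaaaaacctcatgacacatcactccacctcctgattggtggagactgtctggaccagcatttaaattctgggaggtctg
Mrc1: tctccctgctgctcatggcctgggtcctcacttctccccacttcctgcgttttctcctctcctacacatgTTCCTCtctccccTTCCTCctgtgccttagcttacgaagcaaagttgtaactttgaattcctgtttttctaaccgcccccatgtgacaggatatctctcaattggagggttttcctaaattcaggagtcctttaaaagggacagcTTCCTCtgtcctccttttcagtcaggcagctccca
Cd68: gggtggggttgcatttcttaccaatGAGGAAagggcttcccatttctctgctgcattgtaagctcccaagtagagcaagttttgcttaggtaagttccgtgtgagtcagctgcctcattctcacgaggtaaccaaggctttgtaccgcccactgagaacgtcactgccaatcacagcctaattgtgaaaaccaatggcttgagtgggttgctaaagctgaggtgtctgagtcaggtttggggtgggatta
On either strand, this motif was found once for Spp1, 3 times for Mrc1 and once for Cd68. Of 8 of the 10 genes searched, 5 had it at 1 or more starts, and of their 11 starts 6 had it, against 23.3% of all 32851 promoters of the same length. Trem2 and Apoe were the other genes with a match, while Lyz2, Mpeg1 and Mertk had none in this window. Lyz2, Mpeg1 and Mertk were, like Apoe, also highest in maternal BSp replicate 2. Spp1 had none before its second start. A match is a description of the letters and not of a site.

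The 10 genes did not share one order of libraries. Each gene was set against its own mean over the 5 libraries on the log2(value + 1) scale. On that scale the median over the 9 tested genes lay at 0.05, 0.76 and -0.57 in maternal BSp replicates 1, 2 and 3, against -0.26 and -0.19 in control replicates 1 and 2. The maternal BSp libraries thus spanned more than the distance between the groups, with both controls between replicates 1 and 3. Cd14 was the gene farthest from the mean profile of the 9, with a root mean square difference of 1.01, followed by Trem2 at 0.71 and Spp1 at 0.68. Mpeg1 and Cd68 were nearest, at 0.25 and 0.26.

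**Figure D3:**
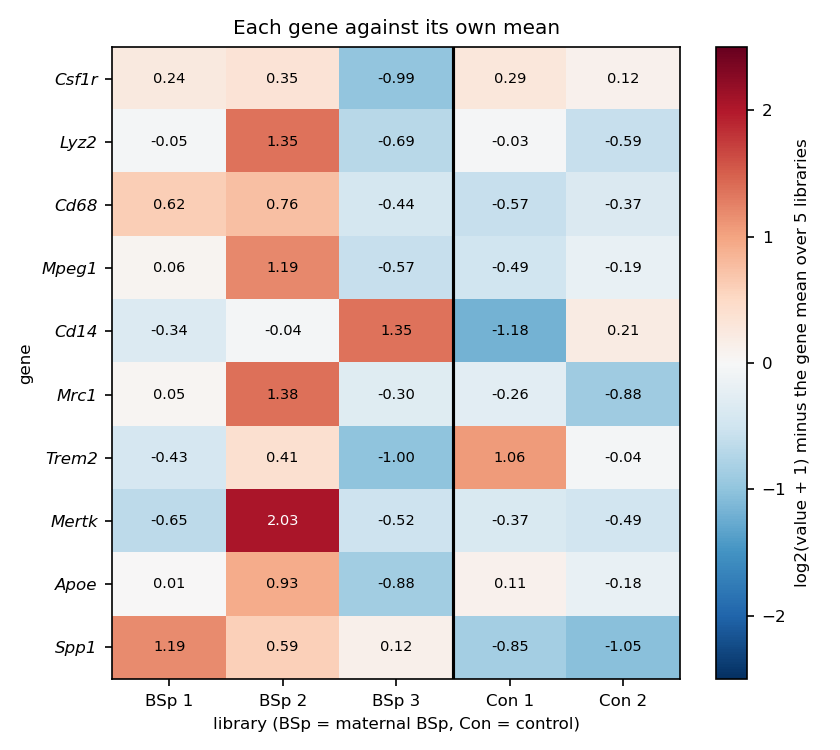
Each gene's log2(value + 1) minus its mean over the 5 libraries, for the 10 genes (rows) in maternal BSp replicates 1 to 3 and control replicates 1 and 2 (columns), with red above and blue below the mean. Mertk, Mrc1, Lyz2 and Mpeg1 are red in maternal BSp replicate 2 at 1.19 to 2.03, and Cd14 is red in maternal BSp replicate 3 at 1.35. Spp1 alone is above its mean in all 3 maternal BSp libraries. Both controls are below the mean for Spp1 and also for Cd68, Mrc1, Lyz2, Mpeg1 and Mertk.

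A ratio of genes inside 1 library does not depend on how libraries were scaled, so the genes were also set against Csf1r. This view was chosen after the values were seen and is a description. The ratio of Cd68 to Csf1r was 0.614, 0.629 and 0.692 in maternal BSp, against 0.255 and 0.333 in control. It was thus tight inside each group and about level across the 3 maternal BSp libraries, although Cd68 itself was low in replicate 3. The ratio of Spp1 to Csf1r was 17.4, 10.7 and 19.8 in maternal BSp, against 4.06 and 4 in control. The ratio of Mrc1 to Csf1r was 0.153, 0.371 and 0.281 in maternal BSp, against 0.117 and 0.0816 in control. The ratio of Mpeg1 to Csf1r was 0.473, 0.973 and 0.719 in maternal BSp, against 0.309 and 0.432 in control, and here maternal BSp replicate 1 was only just above control replicate 2. The ratio of Lyz2 to Csf1r was 2.61, 6.42 and 3.99 in maternal BSp, against 2.56 and 1.96 in control, with maternal BSp replicate 1 and control replicate 1 nearly equal. In all, the ratio lay above both controls in every maternal BSp library for 5 of the 8 other tested genes, against 31.6% of all genes tested. In maternal BSp replicate 3 Csf1r itself was at its lowest, 38.03, and a low Csf1r raises every ratio in that library. Lyz2 and Mpeg1 were also at their lowest there, at 152 and 27.4, although their ratios lay above both controls. The ratios of Apoe, Trem2, Cd14 and the untested Mertk overlapped. That of Trem2 was 0.138, 0.237 and 0.213 in maternal BSp, against 0.394 and 0.201 in control.

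**Figure D4:**
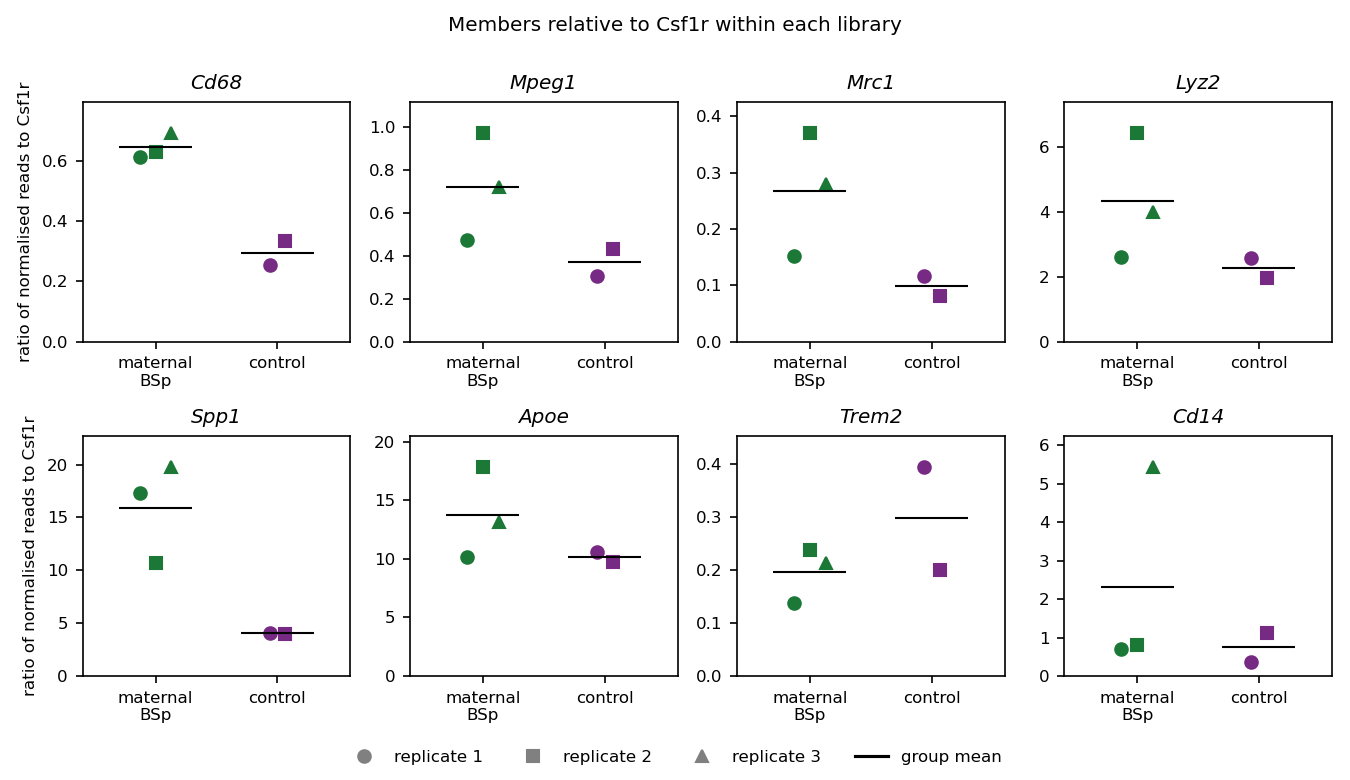
Ratio of the normalised reads of 8 genes to those of Csf1r within each library (linear axes from 0), with maternal BSp (green) left of control (purple) and lines for the group means. Cd68 and Spp1 separate widely, with 0.614 to 0.692 and 10.7 to 19.8 in maternal BSp against 0.255 to 0.333 and 4 to 4.06 in control, while Apoe, Trem2 and Cd14 overlap.

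Other macrophage genes were measured beside the 10. Of 30 listed, 19 were tested, 7 were above 0 and 12 below, with a median log2 fold change of -0.49 beside 0.21 over all genes, and 0 passed. Without maternal BSp replicate 2 the median was -0.74 and 3 of 19 were above 0, beside a median of 0.08 over all genes. With TMM and median-of-ratios scaling it was -0.67 and -0.69 with 4 above, beside 0.02 and 0.003 over all genes. The groups did not overlap with maternal BSp below for 5 of the 19, and with maternal BSp above for 0, against 9.21% and 23.8% of all genes tested. C1qa, a chain of the complement protein C1q, measured 89.4, 264 and 95.9 in maternal BSp, against 343 and 365 in control. Its log2 fold change was -1.42 (SE 0.50, limma adjusted p = 0.41), and its unadjusted p in the authors' deposited table was 0.026. C1qb measured 76.2, 177 and 63.5 in maternal BSp, against 196 and 201 in control, a log2 fold change of -1.05 (SE 0.47, limma adjusted p = 0.45). Both chains were below both controls in every maternal BSp library, with replicate 2 the nearest to them. C1qc, the third chain, overlapped, at 73.1, 190.03 and 58.8 in maternal BSp, against 150 and 211 in control. With array weights C1qa and C1qb were called, lower in maternal BSp, at limma adjusted p = 0.0308 and 0.0383. Cx3cr1, the receptor of fractalkine, measured 16.2, 7.90 and 8.66 in maternal BSp, against 38 and 17.0 in control, a log2 fold change of -1.22 (SE 0.56, limma adjusted p = 0.46). Adgre1, which encodes F4/80 and stands in the table under its older symbol, measured 10.2, 16.3 and 7.22 in maternal BSp, against 19 and 12.5 in control. It overlapped between the groups, as did Spi1, which encodes PU.1, at 10.1, 11.9 and 8.02 in maternal BSp, against 9 and 15.9 in control.

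The lipid-handling genes listed with Trem2, with Trem2 and Apoe themselves counted among them, were split. Of 17 tested, 8 were above 0 and 9 below, with a median of -0.14 beside 0.21 over all genes, and 0 passed. Single libraries moved this. The median was -0.55 with 5 of 17 above 0 without maternal BSp replicate 2 (all genes 0.08). Without control replicate 1 it was 0.12 with 9 above (all genes 0.18). With the 3 other scalings it lay between -0.35 and -0.27, with 6 above, and that of all genes between 0.003 and 0.08. Fabp5, a fatty acid carrier, measured 67.4, 46.3 and 154 in maternal BSp, against 225 and 167 in control, a log2 fold change of -1.29 (SE 0.51, limma adjusted p = 0.43). Cd9, a tetraspanin that epithelium also makes, measured 1186, 1486 and 1703 in maternal BSp, against 723 and 836 in control, a log2 fold change of 0.89 (SE 0.37, limma adjusted p = 0.44). The groups did not overlap for either gene, in opposite directions. Gpnmb, a glycoprotein of lipid-laden macrophages, had 1.70, 8.04 and 0.722 in maternal BSp, against 0 and 0.283 in control, and was highest in the library where Mertk was highest.

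Activation markers were mostly too low to test. Of 10 genes of alternative activation 2 were tested, Mrc1 and Arg1. Arg1, arginase 1, measured 103, 245 and 49.98 in maternal BSp, against 168 and 124 in control, and overlapped. Of 10 genes of inflammatory activation 3 were tested, and each overlapped between the groups. Ptgs2, which encodes cyclooxygenase 2, measured 249, 186 and 29.6 in maternal BSp, against 99 and 51.5 in control. Cxcl10 measured 27.7, 15.6 and 15.2 in maternal BSp, against 2 and 21.5 in control, and Cxcl9 measured 4.71, 1.01 and 6.34 in maternal BSp, against 0 and 43.3 in control. Both of these chemokines were lowest in control replicate 1. The median log2 fold change of the 3 was 0.64, and -0.19 without control replicate 1. The others were too low to test. Il1b measured 2.75, 2.19 and 2.73 in maternal BSp, against 5 and 17.3 in control, and Nos2 0.393, 2.89 and 1.36 in maternal BSp, against 1 and 10.8 in control. Both were highest in control replicate 2, and for Il1b every maternal BSp library lay below both controls. The Il1b values rest on 21, 122 and 34 reads in maternal BSp, and on 5 and 61 reads in control. Il10 measured 0.131, 1.11 and 0.321 in maternal BSp, against 4 and 7.93 in control, with an unadjusted p of 0.0148 in the authors' deposited table, and its control values rest on 4 and 28 reads.

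Markers of other cell types also differed between the libraries. The 8 genes shared by leukocytes, such as Ptprc, which encodes CD45, summed to 246, 142 and 103 in maternal BSp, against 166 and 209.8 in control. Maternal BSp replicate 2, which was highest for 7 of the 10 macrophage genes, was thus below both controls in this sum, but not in every gene. There Coro1a, Cd52, Ptprc and Vav1 lay below both controls, and Lcp1, Itgb2, Cd48 and Cd37 above both. Coro1a, the largest of them in control, was 30.9 in that library, against 72 and 82.1 in control. Ptprc itself measured 36.6, 12.3 and 12.8 in maternal BSp, against 16 and 16.1 in control. The 10 fibroblast markers summed to 3446, 5316 and 1499.5 in maternal BSp, against 3798 and 2003 in control, in an order of the maternal BSp libraries like that of the macrophage genes. The sum of the 10 epithelial markers ranged from 5776 to 7902 in maternal BSp and from 6974 to 7570 in control, but 7 of the 10 had a log2 fold change below 0, with a median of -0.32. Krt5, a basal keratin, measured 47.1, 65.8 and 2.89 in maternal BSp, against 203 and 173 in control, with no overlap. B cell markers summed to 54.3, 1.79 and 3.37 in maternal BSp, against 2 and 3.96 in control. T and NK cell markers summed to 54.6, 27.5 and 17.8 in maternal BSp, against 7 and 68.5 in control, with Cd3e between 0 and 3.93 in all 5 libraries. Lck alone was 16.0, 23.9 and 12.4 of that sum in maternal BSp, against 6 and 54.9 in control. Neutrophil markers summed to 91.9, 79.0 and 29.6 in maternal BSp, against 387 and 295 in control. Ltf, lactoferrin, which mammary epithelium also makes, was 52.5, 51.9 and 12.03 of it in maternal BSp, against 359 and 280.3 in control, and Ly6g was at 0 in every library. The part of these cells in the values of the macrophage genes was not tested.

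**Figure D5:**
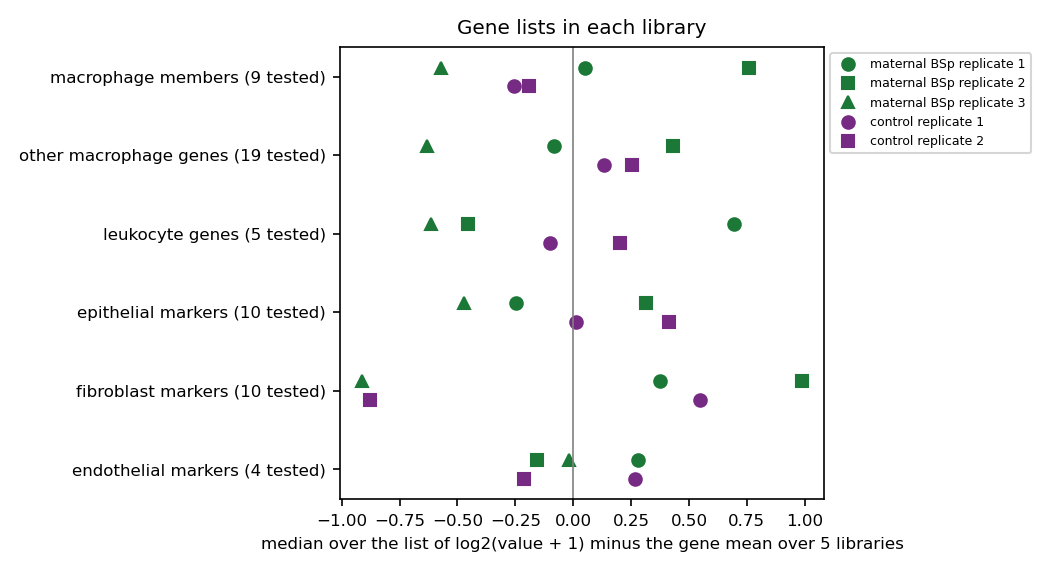
Median over each gene list of log2(value + 1) minus the gene's mean over the 5 libraries, for 3 maternal BSp libraries (green, upper row of each list) and 2 control libraries (purple, lower row). The macrophage genes run from -0.57 to 0.76 in maternal BSp with both controls between, and leukocyte genes are highest in maternal BSp replicate 1 at 0.70.

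Prc1, Tax1bp3, Prkci, Erbb2 and Unc119b had profiles over the 5 libraries that were among the most like the mean profile of the 9 macrophage genes. They were among the 6 nearest of 2267 genes that averaged 100 or more, with root mean square differences of 0.0427 to 0.0924 on the log2(value + 1) scale. Prc1, a protein of the mitotic spindle midzone, measured 144, 225 and 108 in maternal BSp, against 113 and 107 in control. None of these 5 is on the lists of macrophage genes, and each overlapped between the groups. With 5 libraries such likeness is a description.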

How the data were processed

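RNA was measured in 5 tumour libraries, numbered by their description labels. Total RNA went into a strand-specific mRNA kit, per the labels' protocols, and STAR, DESeq, cutadapt, Trim Galore and FastQC are named with GRCm38 and mm10, per the submitters' processing notes. Which program counted reads, on which annotation and strand, is not given in the sources used here, so genes that overlap on opposite strands are uncertain. The deposited signal is a gene's reads after the authors brought every library to 1 total, per the file headers and the values. In it 100% of the values above 0 were whole multiples of 1 read, within 0.1 read, which gave the recovered reads. The second deposited table holds the authors' means, as signal on that scale, and their unadjusted p-values, per the file headers.

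Computed here: limma 3.58.1 (trend) in R 4.3.3 on log2(value + 1), with 9870 genes kept because they averaged 10 or more, Benjamini-Hochberg adjusted over all of them, two-sided. A fold change on this scale understates that of low genes. Alternatives were other filters, pseudocounts and scalings, each library left out, a replicate block, array weights, and edgeR 4.0.16 and DESeq2 1.42.0 on recovered reads (edgeR called 0 genes with 971 at an unadjusted p under 0.05). The fit was tested on simulated data. Positions and transcript lengths are from GENCODE M21 on GRCm38. The genes named are the 10 members, those of 22 lists with the smallest p or paired with a member as ligand, receptor, adaptor or relative, and the 6 nearest profiles, 1 of which is not reported here. Other genes named were chosen after their values were seen. The members and lists were chosen with earlier results of these data known.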

Additional observations from a re-analysis of the deposited data

How the results depend on the processing

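The number of genes called was 0 in the main analysis and stayed at 0 under other filters, pseudocounts and scalings and with edgeR. It was 100 with DESeq2, 699 with array weights and 23 with the replicate block, and it lay between 0 and 1 when single libraries were left out, with the 1 call made without maternal BSp replicate 3. Of the 10 macrophage genes, Spp1 with array weights was the only one called in any of these settings. The median log2 fold change of the 9 tested genes lay between 0.08, reached by leaving out maternal BSp replicate 2, and 0.96 (replicate block, or replicate 3 of that group left out), each within the spread between libraries of 0.54 from the main value of 0.57. Over all genes tested, the median in those settings was 0.08 and 0.30. The block and the leaving out of replicate 3 give the same fold changes, since no control shares that number. The replicate block used the numbers of the description labels. By these, numbers 1 and 2 are shared by the groups, but nothing in the labels says that they pair animals. The deviations of libraries with the same number correlated at 0.094 and -0.092. The titles number the controls 2 and 3 instead, and matched that way the correlations were 0.092 and 0.16. With 2 controls, the deviations of either are those of the other with the sign turned. The 0.092 is therefore the -0.092 above with its sign turned, and not a separate value.

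Of 142 values of the 9 genes under these settings, 10 had the other sign. These are not 142 separate checks. Other filters leave the fold change of a gene unchanged, and the replicate block repeats that found without maternal BSp replicate 3. Csf1r was 0.092 without maternal BSp replicate 3 and with the replicate block, its values over the left-out libraries ranging from -0.58 to 0.092. Lyz2 ranged from -0.064 to 0.96 over the left-out libraries. Apoe, whose main value was 0.05, was -0.083 with upper quartile scaling, -0.16 with median-of-ratios scaling, -0.14 with TMM scaling, -0.029 with edgeR and -0.062 with DESeq2, and ranged from -0.40 to 0.50 over the left-out libraries. The cause was not tested. Scaling moved the median of all genes tested from 0.21 as deposited to 0.08 (upper quartile), 0.003 (median-of-ratios) and 0.02 (TMM), and the share of genes at an unadjusted p under 0.05 that were higher in maternal BSp was 71.8% as deposited, 55.5% (upper quartile), 42.7% (median-of-ratios) and 46.2% (TMM). Depth limits Mertk, Mrc1 and Cd68 most in control replicate 1, where they had 1, 11 and 24 reads.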
